A study of Mus musculus with 6 samples.

Results

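The genes of the calmodulin-dependent protein kinases were followed in primary neurospheres, the free-floating spheres in which neural precursors multiply in a dish, grown with norepinephrine or with KCl. The family was taken by name as 10 genes, Camk1, Camk1d, Camk1g, Camk2a, Camk2b, Camk2d, Camk2g, Camk4, Camkk1 and Camkk2, of which 9 had a probe set carrying that symbol alone, out of 19937 genes named in the table. Camkk1 was not analysed here. Each of the 9 had 1 such probe set, so no choice among probe sets was needed.

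One group was 3 samples grown with 10 µM norepinephrine, a monoamine transmitter, and the other was 3 samples grown with 15 mM KCl, which depolarises neurons. All came from hippocampal tissue of male C57BL/6J mice of 8 to 12 weeks, were cultured with EGF and bFGF, and were harvested on day 14. The labels call the harvested spheres big neurospheres in both groups, without saying how their size was set. RNA of each sample was read on 1 whole-transcript array. An untreated group was not analysed here, so each difference sets one treatment against the other, norepinephrine over KCl, and leaves unknown which of them moved a gene. The labels call the samples of a group biological replicates. They do not say whether each came from its own animal or culture, so the p-values rest on the spread among these samples alone.

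Calmodulin is a small protein that binds calcium ions, and the calcium-loaded form switches on a set of serine and threonine kinases. Camk1, Camk1d and Camk1g encode isoforms of kinase I, and Camk4 encodes kinase IV, which phosphorylates the transcription factor CREB in the nucleus. Both need a second step, phosphorylation by the upstream kinases encoded by Camkk1 and Camkk2, of which the Camkk2 product also activates AMP-activated kinase. Camk2a, Camk2b, Camk2d and Camk2g encode the subunits of kinase II, a multi-subunit enzyme that phosphorylates itself and is abundant at neuronal synapses.

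Sequence upstream of 3 genes is shown, those whose norepinephrine and KCl values did not overlap. It was taken from RefSeq (GRCm38.p6), minus strand, 5′ to 3′, and ends at the last base before the outermost annotated start of the gene. Capitals mark TGACG, the core of the cAMP response element that CREB binds.
Camk1: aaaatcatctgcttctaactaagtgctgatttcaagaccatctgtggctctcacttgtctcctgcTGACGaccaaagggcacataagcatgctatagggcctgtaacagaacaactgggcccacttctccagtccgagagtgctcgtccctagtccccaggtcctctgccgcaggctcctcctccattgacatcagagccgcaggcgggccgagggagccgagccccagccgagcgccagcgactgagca
Camkk2: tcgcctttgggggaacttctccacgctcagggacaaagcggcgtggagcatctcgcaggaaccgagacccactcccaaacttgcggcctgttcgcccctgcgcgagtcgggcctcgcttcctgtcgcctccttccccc
Camk1d: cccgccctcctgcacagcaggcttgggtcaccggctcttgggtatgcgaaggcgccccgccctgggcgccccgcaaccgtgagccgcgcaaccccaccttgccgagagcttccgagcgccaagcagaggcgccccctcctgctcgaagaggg
These stretches are chr6:113343923-113344172 for Camk1, chr5:122779523-122779660 for Camkk2 and chr2:5714861-5715012 for Camk1d. The full element, TGACGTCA, was searched on both strands in windows of 250 bases before to 50 after a start. It was in 0 of 7 windows of 6 kinase genes (Camk1, Camk1d, Camk1g, Camk2b, Camk2d and Camkk2) and in 1.79% of 32851 windows of all genes. The core TGACG, which every full element contains, was in 1 of the 7 windows, that of Camk1, and in 20.8% of all windows. The GC box GGGCGG, which is part of neither, was in 5 of the 7 windows and in 35.7% of all windows. A match describes letters only and is no measured binding site.

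Among the 9 kinase genes, Camk1 and its upstream activator Camkk2 read higher with KCl, and Camk1d read a little higher with norepinephrine, with no overlap between the groups in these 3. Camk1 was 1.40-fold and Camkk2 1.37-fold higher in the KCl samples. Camk2a, Camk2d, Camk2g and Camk4 differed by less than the SD of either group, and the groups overlapped for Camk2b and Camk1g. None of the 9 differences passed the test after adjustment. By limma with Benjamini-Hochberg adjustment, 0 of the 9 had an adjusted p under 0.05, as had 0 of all 21640 named probe sets (0%), and the lowest adjusted p of the table was 0.661.

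At an unadjusted p under 0.05, 1 of the 9 was higher with KCl and 0 with norepinephrine, where 1.24% and 2.2% of all named probe sets were. The groups did not overlap in 2 of the 9 with KCl higher and in 1 with norepinephrine higher, where 4.77% and 4.36% of all named probe sets did so. The median difference over the 9 was -0.036 on the log2 scale, beside -0.075 over all named probe sets, and 3 of the 9 lay above 0, beside 38% of all. With 3 samples a group, an exact two-sided permutation test of a single gene cannot go below 0.1.

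One array stood apart from the rest. Its values were the most compressed, with an SD over the named probe sets of 1.38 log2 units on this array, KCl replicate 1, and of 1.62 to 1.78 elsewhere. That array gave the highest or the lowest of the 6 values in 6 of the 9 kinase genes, and in 76.3% of all named probe sets. Differences without it are therefore given beside each kinase gene. Without it, 0 of the 9 had an adjusted p under 0.05, beside 0.0185% of all named probe sets. At an unadjusted p under 0.05, 1 of the 9 was then higher with KCl and 0 with norepinephrine, beside 2.25% and 2.38% of all. The median difference over the 9 was then -0.21, beside 0.0083 over all named probe sets, and 3 of the 9 lay above 0, beside 52.2% of all. The median of the kinase genes was thus above that of all probe sets on 6 arrays and below it without KCl replicate 1.

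**Figure D1:**
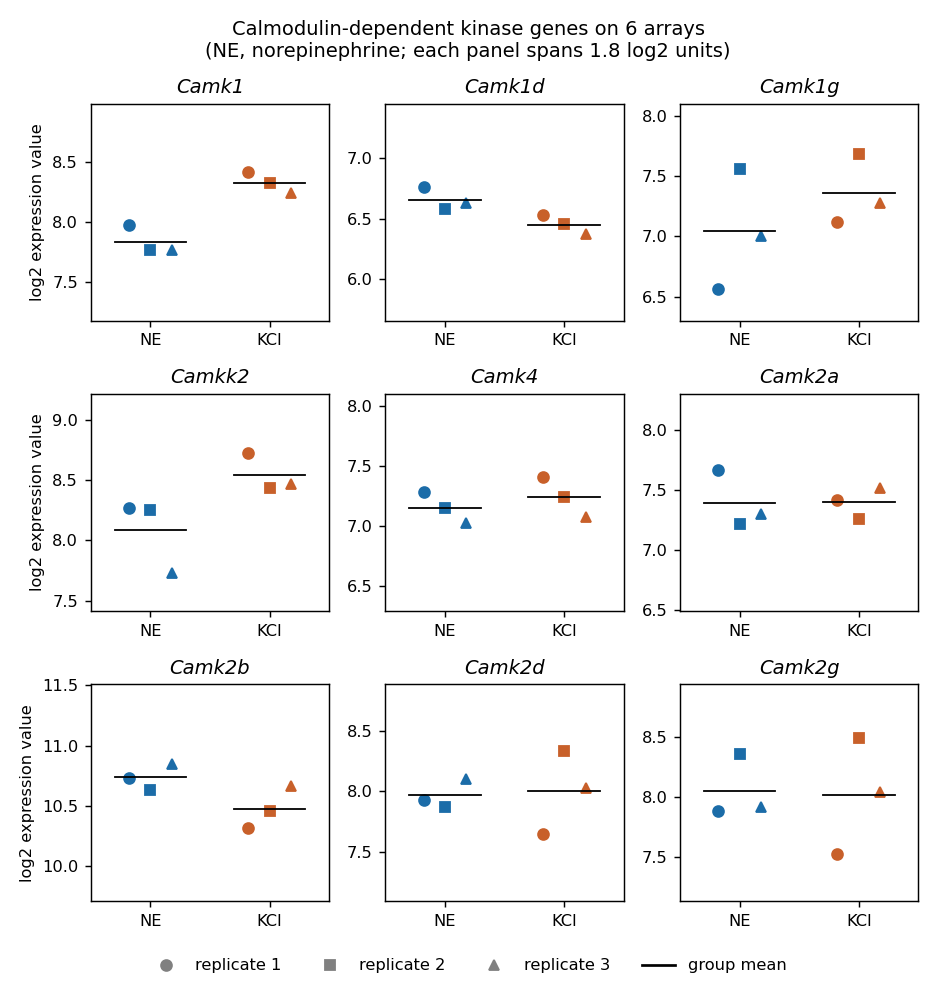
Log2 expression values of the 9 kinase genes, norepinephrine samples left and KCl samples right in each panel. Symbols are replicates and bars are group means. The Camk1 and Camkk2 panels show every KCl sample above every norepinephrine sample, the Camk1d panel shows the opposite order, and in the other 6 panels the groups overlap.

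Kinase I is considered first. Camk1 (probe set 10546891), whose product is the most widely expressed isoform of kinase I, read 7.97, 7.77 and 7.77 with norepinephrine, against 8.41, 8.33 and 8.24 with KCl. All 3 KCl samples were above all 3 norepinephrine samples, and each group spanned no more than 0.21 log2 units. The means were 7.84 ± 0.12 with norepinephrine and 8.33 ± 0.084 with KCl (SD, n = 3 each). The difference was -0.49 ± 0.18 (log2, moderated SE), with a 95% interval of -0.90 to -0.085. The unadjusted p of limma was 0.0233 and the adjusted p 0.939, and by p the gene ranked 331 among the named probe sets. Without KCl replicate 1 the difference was -0.45, and over all 6 single-array omissions it lay between -0.56 and -0.45. In those omissions the unadjusted p lay between 0.0235 and 0.0942.

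Camk1d (10479852), the delta isoform, read 6.76, 6.58 and 6.63 with norepinephrine, against 6.53, 6.45 and 6.37 with KCl. The groups did not overlap, but the lowest norepinephrine sample lay only 0.053 above the highest KCl sample. The difference was 0.21 ± 0.18, with a 95% interval of -0.19 to 0.61 and an unadjusted limma p of 0.270. It was 0.25 without KCl replicate 1 and 0.32 after quantile normalization of the deposited values, where the unadjusted limma p was 0.0778.

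Camk1g (10361250), the gamma isoform, known from neurons, read 6.56, 7.56 and 7.01 with norepinephrine, against 7.12, 7.69 and 7.27 with KCl. The groups overlapped, and replicate 2 was the highest sample of each. The spread within the norepinephrine group, 1.00 log2 unit from lowest to highest, was the widest of any kinase gene in either group. The difference of -0.32 ± 0.28 had a 95% interval of -0.96 to 0.33. Single arrays set its size, which was -0.58 when norepinephrine replicate 2 was left out, -0.077 when norepinephrine replicate 1 was and -0.15 when KCl replicate 2 was. Without KCl replicate 1 it was -0.44.

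Camkk2 (10533529), the upstream kinase that activates kinases I and IV, read 8.27, 8.26 and 7.73 with norepinephrine, against 8.72, 8.44 and 8.46 with KCl. Every KCl sample was above every norepinephrine sample, and norepinephrine replicate 3 was the lowest by 0.53. The means were 8.09 ± 0.31 with norepinephrine and 8.54 ± 0.16 with KCl (SD, n = 3 each). The difference was -0.46 ± 0.22, with a 95% interval of -0.95 to 0.037 and an unadjusted limma p of 0.0656 (adjusted p = 0.939). With that low norepinephrine array left out it was -0.28, and with KCl replicate 1 left out -0.37.

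Camk4 (10454632), the nuclear kinase acting on CREB, read 7.28, 7.15 and 7.02 with norepinephrine, against 7.41, 7.24 and 7.07 with KCl. The groups overlapped, and the difference of -0.090 ± 0.19 was smaller than the SD of either group (0.13 and 0.17). Its 95% interval ran from -0.52 to 0.34, so a change of up to 0.52 log2 units toward KCl lies within the error. It was -0.0071 without KCl replicate 1.

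**Figure D2:**
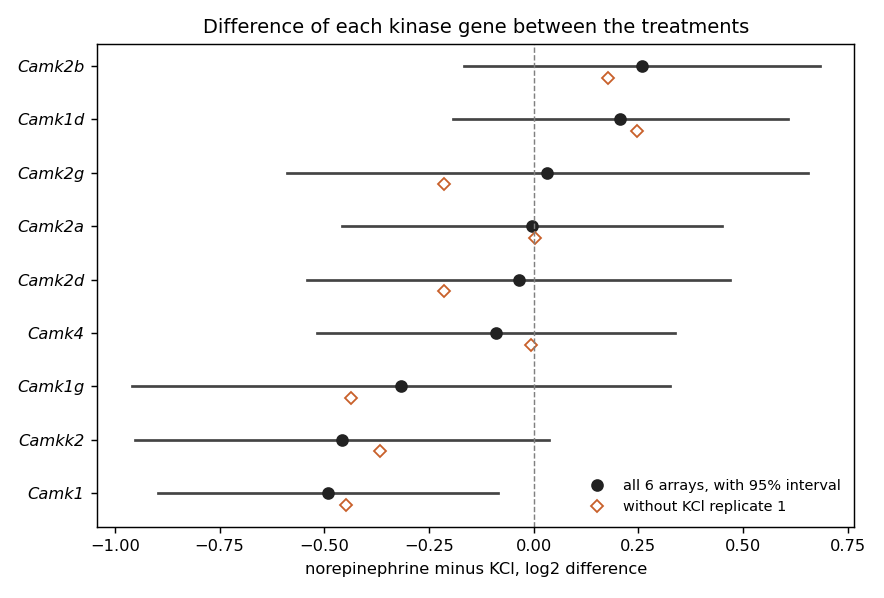
Log2 difference, norepinephrine minus KCl, for each kinase gene. Filled circles with bars are all 6 arrays with the 95% interval, and open diamonds leave out KCl replicate 1. Of the 9 intervals, that of Camk1 alone, from -0.90 to -0.085, does not reach 0, and the values are not adjusted for the number of genes.

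The 4 kinase II genes followed no common direction. Camk2a (10456021), the alpha subunit typical of excitatory forebrain neurons, read 7.66, 7.21 and 7.30 with norepinephrine, against 7.42, 7.26 and 7.52 with KCl. The groups overlapped throughout, and the difference was -0.0047 ± 0.20 with a 95% interval of -0.46 to 0.45. It was 0.0042 without KCl replicate 1, and its sign turned in 6 of 15 alternatives.

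Camk2b (10384064), the beta subunit, which binds actin, read 10.73, 10.63 and 10.85 with norepinephrine, against 10.32, 10.45 and 10.66 with KCl. A single KCl sample, replicate 3, reached into the norepinephrine range. The difference of 0.26 ± 0.19 had a 95% interval of -0.17 to 0.68. It was 0.18 without KCl replicate 1 and 0.053 after quantile normalization of the deposited values.

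Camk2d (10495896), the delta subunit, expressed in many tissues and best known from heart, read 7.93, 7.87 and 8.10 with norepinephrine, against 7.65, 8.34 and 8.03 with KCl. KCl replicates 1 and 2 were the lowest and the highest of all 6 samples, so the KCl group spanned the norepinephrine group. The difference was -0.036 ± 0.22, with -0.21 without KCl replicate 1 and 0.13 without KCl replicate 2.

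Camk2g (10417972), the gamma subunit, also of wide expression, read 7.88, 8.35 and 7.91 with norepinephrine, against 7.52, 8.48 and 8.04 with KCl. The KCl samples spanned 0.96 log2 units, again with replicate 1 lowest and replicate 2 highest. The difference was 0.033 ± 0.27 with a 95% interval of -0.59 to 0.66. Without KCl replicate 1 it was -0.21, and without KCl replicate 2 it was 0.27.

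The genes around the kinases were read from 4 lists with 55 entries, of which 53 were measured. Of these, 25 were higher with norepinephrine and 28 with KCl, with a median difference of -0.026, while 38% of all named probe sets were higher with norepinephrine. None passed after adjustment by limma (lowest adjusted p = 0.939). At an unadjusted p under 0.05 there were 4 higher with norepinephrine (Calm3, Pcp4l1, Gap43 and Dclk1) and 1 higher with KCl (Mylk), where 2.2% and 1.24% of all named probe sets were. Without KCl replicate 1 these counts were 5 and 3, beside 2.38% and 2.25% of all.

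Of the calmodulin genes, Calm2 and Calm3 are described, together with the calmodulin-like genes Calml3 and Calml4. Calm3 read 10.92, 10.70 and 10.70 with norepinephrine, against 9.14, 10.53 and 9.86 with KCl. Every norepinephrine sample was higher, and KCl replicate 1 was lowest by 0.73. The difference was 0.93 ± 0.33 (limma adjusted p = 0.939), and 0.58 without KCl replicate 1. Calm2 read 13.40 to 13.48 with norepinephrine and 13.27 to 13.56 with KCl, a difference of 0.011 ± 0.18 that lay within the spread of the samples and was 0.016 without KCl replicate 1. Calml3 and Calml4 differed by -0.25 ± 0.24 and -0.34 ± 0.25, and by -0.056 and -0.079 without KCl replicate 1.

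A list of 10 held proteins that restrain the kinases or hold calmodulin, and relatives of such proteins. Of these, 3 were higher with norepinephrine and 7 with KCl, with a median of -0.11 (0.038 without KCl replicate 1). Pcp4l1 encodes a relative of the calmodulin-binding peptide Pcp4, and whether it binds calmodulin itself was not tested. It read 9.83, 9.72 and 9.54 with norepinephrine, against 8.73, 9.27 and 8.84 with KCl. The groups did not overlap, and the difference was 0.75 ± 0.21 (limma adjusted p = 0.939), or 0.64 without KCl replicate 1. Gap43, a growth cone protein that binds calmodulin, read 11.52, 11.05 and 11.31 with norepinephrine, against 10.78, 10.73 and 10.65 with KCl. Here too every norepinephrine sample was higher, by 0.58 ± 0.19 in the mean (limma adjusted p = 0.939), or 0.61 without KCl replicate 1.

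The other members of that list overlapped between the groups. The kinase II inhibitors Camk2n1 and Camk2n2 differed by -0.024 ± 0.20 and -0.10 ± 0.21, and the phosphatases Ppm1e and Ppm1f, which remove the activating phosphate from these kinases, by -0.11 ± 0.20 and -0.11 ± 0.19. Without KCl replicate 1 these 4 came to 0.11, 0.054, -0.21 and -0.024 in the same order. Neurogranin (Nrgn), a neuronal calmodulin buffer, differed by -0.14 ± 0.21, and by 0.0031 without that array. The calmodulin-binding membrane proteins Marcks and Marcksl1 differed by 0.083 ± 0.28 and -0.26 ± 0.29, and by -0.22 and 0.022 without that array. Pcp4 read 7.52 to 7.93 with norepinephrine and 9.65, 7.41 and 7.78 with KCl, so its difference of -0.52 ± 0.51 rested on KCl replicate 1 and was 0.17 without it.

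**Figure D3:**
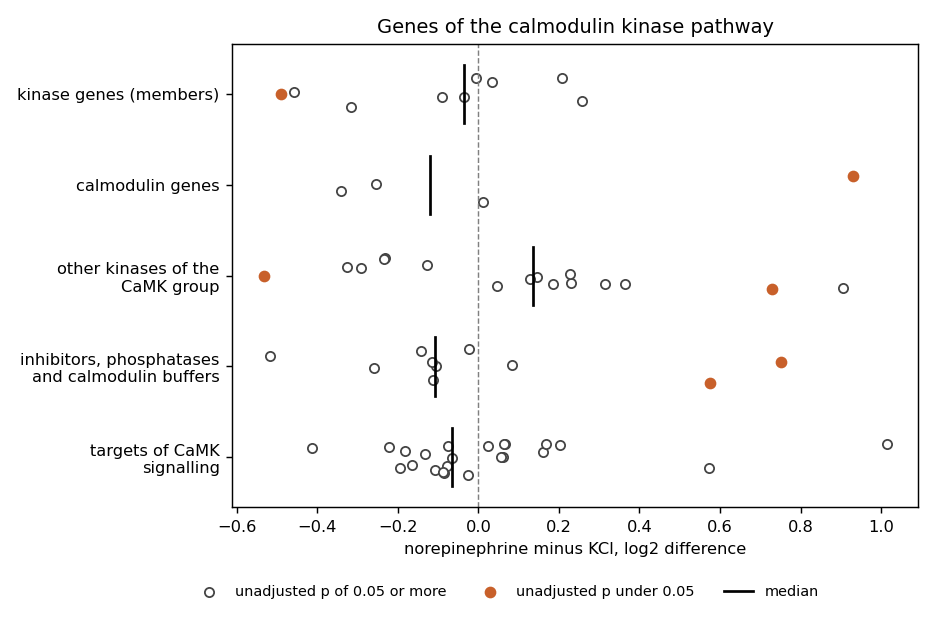
Log2 difference, norepinephrine minus KCl, of each measured gene in the kinase family (top) and in 4 lists around it. Vertical bars are list medians, from -0.12 to 0.14, and filled points have an unadjusted p under 0.05. No point passed after adjustment over all probe sets.

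Other kinases of the CaMK group, or dependent on calmodulin, numbered 16, with 10 higher in the norepinephrine samples and a median difference of 0.14. Dclk1, doublecortin-like kinase, a microtubule-binding kinase of neural precursors and young neurons, read 10.94, 11.02 and 10.97 with norepinephrine, against 9.80, 10.59 and 10.35 with KCl. The norepinephrine samples lay within 0.081 of each other and above all KCl samples. The difference was 0.73 ± 0.23 (limma adjusted p = 0.939), and 0.51 without KCl replicate 1. Mylk, the calmodulin-activated myosin light chain kinase, read 7.09, 7.03 and 7.04 with norepinephrine, against 7.58, 7.44 and 7.74 with KCl. It went the other way without overlap, at -0.53 ± 0.18 (limma adjusted p = 0.939), and was -0.54 without KCl replicate 1. Phkg2, a catalytic subunit of phosphorylase kinase, differed by 0.91 ± 0.43, and Dapk1, a death-associated kinase, by 0.37 ± 0.22. These came to 0.34 and 0.17 without KCl replicate 1.

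Of 23 measured targets of the kinases, 10 were higher with norepinephrine and 13 with KCl, with a median of -0.065, and 0 had an unadjusted p under 0.05. The 4 of smallest p were the AMPA receptor subunit Gria1 at 1.02 ± 0.46, the AMP-activated kinase subunit Prkaa2 at 0.57 ± 0.33, the transcription factor Mef2c at -0.41 ± 0.28 and the histone deacetylase Hdac7 at -0.22 ± 0.19. Without KCl replicate 1 they came to 0.46, 0.27, -0.70 and -0.11. At an unadjusted limma p under 0.05, 1 target was then higher with norepinephrine, the receptor gene Grin2b (0.38). Higher with KCl was 1 target, Mef2c. Over all named probe sets these shares were 2.38% and 2.25%.

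**Figure D4:**
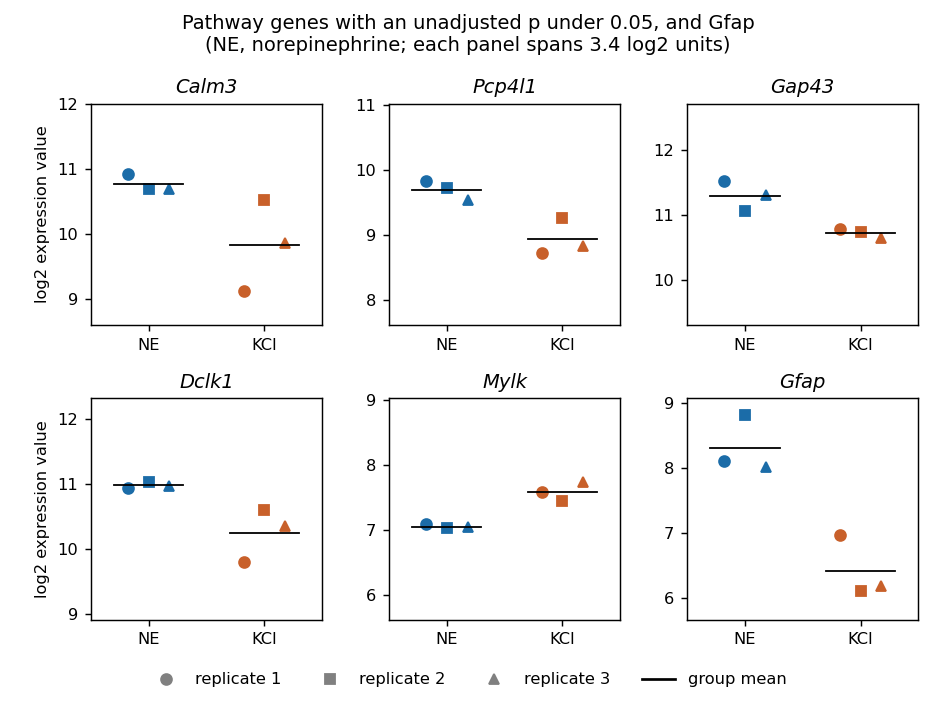
Log2 expression values of the 5 genes around the kinases with an unadjusted p under 0.05, and of the astrocyte filament gene Gfap, norepinephrine samples left and KCl samples right. Symbols are replicates and bars are group means. In all 6 panels the groups do not overlap, and Calm3, Pcp4l1 and Dclk1 read lowest on KCl replicate 1.

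Markers of cell types were read beside the kinases. In such bulk samples, fewer cells of a type and less RNA per cell cannot be told apart. Astrocyte markers were higher with norepinephrine in 7 of 8, with a list mean of 9.35 to 9.56 on the norepinephrine arrays and 8.27 to 8.90 on the KCl arrays. The lowest of these means was that of KCl replicate 1, and KCl replicates 2 and 3 had 8.90 and 8.78. The median difference of the list was 0.67, and 0.41 without KCl replicate 1. Gfap differed most, at 8.31 ± 0.43 with norepinephrine and 6.42 ± 0.48 with KCl (SD, n = 3 each). Its difference was 1.89 ± 0.30 (limma adjusted p = 0.774). KCl replicate 1 gave the highest KCl value of Gfap, 6.97, and without it the difference was 2.17 (limma adjusted p = 0.0450). Neuron markers, the cells in which Camk2a and Camk4 are best known, were higher with norepinephrine in 6 of 10, with list means of 7.17 to 7.39 with norepinephrine and 7.02 to 7.34 with KCl. Snap25, a synaptic protein, differed by 1.03 ± 0.27, and the neuronal markers Rbfox3 and Slc17a7 by 0.081 ± 0.20 and -0.093 ± 0.27. Of the 10, the groups did not overlap in 2 with norepinephrine higher, Snap25 and Tubb3 (0.47 ± 0.18). They also did not overlap in 2 with KCl higher, Map2 (-0.33 ± 0.18) and Gad1 (-0.19 ± 0.18). Over all named probe sets these shares were 4.36% and 4.77%. Without KCl replicate 1, Snap25, Tubb3, Map2 and Gad1 came to 0.90, 0.44, -0.40 and -0.22.

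Neural precursor markers, which bear on the labelled cell type, had list means of 9.66 to 9.77 with norepinephrine and 9.30 to 9.64 with KCl. The lowest was again that of KCl replicate 1, and the median difference was 0.35, or 0.12 without that array. Of the 7 measured, 4 were higher with norepinephrine. In 3 of these (Prom1, Vim and Msi1) the groups did not overlap, as in 4.36% of all named probe sets with norepinephrine higher. The 3 differed by 0.60 ± 0.21, 0.44 ± 0.21 and 0.36 ± 0.18, and by 0.66, 0.28 and 0.32 without KCl replicate 1. The fourth, Sox2, read 10.19 to 10.50 with norepinephrine and 9.43 to 10.33 with KCl, while Nes, Pax6 and Fabp7 differed by -0.096 ± 0.37, -0.049 ± 0.21 and -0.15 ± 0.18. Without that array, the differences of Sox2, Nes, Pax6 and Fabp7 came to 0.068, -0.58, 0.12 and -0.10. These markers were named after their values were seen. Oligodendrocyte lineage markers had list means of 8.21 to 8.29 with norepinephrine and 8.00 to 8.35 with KCl. Microglia markers had list means of 6.01 to 6.16 with norepinephrine and 5.98 to 6.81 with KCl, and those of endothelium and pericytes had 5.99 to 6.24 with norepinephrine and 5.90 to 6.53 with KCl. The highest KCl value of these 3 lists was that of replicate 1 in each case. The files hold no detection calls, so no marker can be called absent, and the part of these cell types in the kinase values was not tested.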

How the data were processed

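The authors deposited 1 log2 value per probe set and sample, made with Partek by RMA per the submitters' processing notes. No version, setting or genome build is given in the sources used here. Over the named probe sets the SD of an array ran from 1.38 (KCl replicate 1) to 1.78 (KCl replicate 2). The deposited values thus did not share a distribution across arrays, and whether a quantile step was part of the RMA run is unknown. Of 34760 probe sets the platform table gave 1 gene symbol to 21640, several to 1321 and none to 11799. Scanner files were not used here, so signal over background is unknown, and the number of arrays limits precision.

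Norepinephrine and KCl arrays (3 each, grouped by sample title) were compared with limma 3.58.1 in R 4.3.3 (lmFit, eBayes, no covariate) over the 21640 probe sets with 1 symbol. Tests were two-sided, and p was adjusted by Benjamini-Hochberg with a threshold of 0.05. A gene with several probe sets was read by the one of highest mean. The script was checked on simulated data. Members and lists were chosen with earlier results of these data known. Named were all kinase genes, all calmodulin genes and inhibitors or buffers, and the 4 genes of smallest p in the other lists. Of the markers, all measured ones of neural precursors and some of neurons and astrocytes were named. Alternatives were another normalization, centring, filters on dim probe sets, variance options, array weights, a replicate block, averaged probe sets and omission of each array.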

Additional observations from a re-analysis of the deposited data

How the results depend on the processing

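No alternative other than array weights gave a kinase gene an adjusted p under 0.05. The default array weights, whose estimation stopped before it converged, put a weight of 673 on KCl replicate 3 and under 0.1 on the other KCl arrays, and gave 5670 probe sets, 22 pathway genes and 3 kinase genes past the threshold (Camk1, Camk1d and Camkk2, with adjusted p = 0.00401, 0.0141 and 0.0112). Weights by the gene-by-gene method, added after seeing the data, put 6.76 on that array and gave 1454 probe sets, 8 pathway genes and 1 kinase gene, Camk1 at -0.41 (adjusted p = 0.0391). Over all alternatives the adjusted p of Camk1 lay between 0.00401 and 1 and its difference between -0.60 and -0.40. Omitting single arrays gave 0 to 4 probe sets past the threshold and 0 kinase or pathway genes, and the median of the kinase genes lay between -0.21 and -0.023, with -0.21 without KCl replicate 1. Camk1d lay under the median filter, which left 8 kinase genes.

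The sign turned in 4 genes, none with an unadjusted p under 0.05 in any of these settings. Camk2a stood at 0.011 after quantile normalization, 0.033 after centring and between -0.14 and 0.084 when single arrays were omitted. Camk2d stood at 0.0026 after centring and between -0.21 and 0.13 in omissions. Camk2g stood at -0.065 and -0.081 with the default and the gene-by-gene weights and between -0.21 and 0.27 in omissions, and Camk4 at 0.059 and 0.044 with these weights. The causes were not tested. Probe sets at an unadjusted p under 0.05 numbered 475 higher with norepinephrine and 268 higher with KCl, 515 and 486 without KCl replicate 1, 548 and 448 after quantile normalization, and 1870 and 1662 without KCl replicate 2.

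With the replicate number as a block, 0 kinase genes passed, and the median of the kinase genes was -0.036. At an unadjusted limma p under 0.05 there were 0 kinase genes higher with norepinephrine and 2 higher with KCl, Camk1 and Camkk2. Of the 21640 named probe sets, 918 and 518 were so in the same order. Same-numbered samples deviated together with correlations of 0.30, 0.63 and 0.085, and 3 of 6 samples correlated best with their own number. With so few samples these values cannot decide whether same-numbered samples shared an animal or culture, which the labels do not say.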

Other observations

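Some genes around the kinases had a second probe set under the same symbol. That of Calm2 differed by -0.14 ± 0.21 and that of Hdac4, a deacetylase kept out of the nucleus by these kinases, by -0.019 ± 0.23. The second probe set of Eef2k, the calmodulin-dependent kinase of elongation factor eEF2, differed by -0.27 ± 0.20, whereas the brighter one differed by 0.23 ± 0.21. For Mef2d, from the list of targets, the second differed by -0.30 ± 0.33 and the brighter one by -0.11 ± 0.22. Among targets not named above, Creb1, the transcription factor phosphorylated by kinase IV, differed by -0.085 ± 0.20, and Prkaa1, the other catalytic subunit of AMP-activated kinase, by 0.025 ± 0.18. Both lay within the spread of the samples and were picked after their values were seen.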
